A study of Rattus norvegicus with 9 samples.

Results

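The 6 nerve-injured libraries of this study of rat muscle, kept in their groups DN and DN-SM, were compared with its 3 sham-operated libraries. They were taken by their labels: DN replicates 1 to 3 and DN-SM replicates 1 to 3, out of 9 libraries in all, set against SHAM replicates 1 to 3. The measure was the mean change of DN and DN-SM from SHAM, fitted over all 9 libraries together, and a gene is described as shared when both injured groups agreed. All libraries were messenger RNA from the gastrocnemius, the calf muscle served by the sciatic nerve, of male rats labelled 8 weeks of age. SHAM had a sham operation. DN had sciatic nerve injury and no current. DN-SM had sciatic nerve injury followed by electrical stimulation every day for 4 weeks, given at 2 Hz through electrodes on the skin. Rats of all groups were anaesthetised, shaved and fitted with the electrodes, so SHAM and DN share that handling with DN-SM. The labels do not give the kind of nerve injury, the day on which SHAM and DN muscle was taken, the time of day of collection, the strain, or whether each library was a separate animal, so p-values here measure the spread between these libraries, which may be technical.

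A muscle that loses its nerve loses both its contractile activity and the signals that the nerve ending releases. Its fibres are known to re-express genes of developing muscle, such as the acetylcholine receptor subunits of fetal muscle and the transcription factor myogenin, to lose protein through the ubiquitin and lysosome pathways, and to change their fuel use. Muscle also carries a circadian clock, in which BMAL1 with CLOCK or NPAS2 switches on the genes of their own repressors, among them the period genes and Ciart, and of output factors such as Dbp. Activity, feeding and glucocorticoids are known to act on that clock.

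Totals of expected counts were 7926445 to 8893843 per library. Skeletal muscle fibre markers were present throughout: the 7 tested summed to 106989 to 112426 FPKM (fragments scaled to transcript length and library size) in SHAM and at least 118116 in each injured library, and none of them passed by edgeR, DESeq2 or limma-voom or at an unadjusted p under 0.05. On the second principal component, which held 19.0% of the variance, all 3 SHAM libraries lay between 10.31 and 32.96 and all 6 injured libraries between -22.70 and 2.69. On the first (30.8%) SHAM replicate 2 lay at -39.09 and SHAM replicate 3 at 9.73, with DN at 22.15 to 24.53 and DN-SM at -11.51 to -8.45. SHAM was the more spread group on that component, and the numbers of calls and the genes named by rule were also computed without each library in turn; list counts, medians and summed levels were not.

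Injured muscle differed from SHAM in 299 of 10129 genes tested, or 2.95%, at an edgeR adjusted p under 0.05, with 162 higher (1.60%) and 137 lower (1.35%). At an unadjusted p under 0.05 there were 1728. All 299 had the same sign in DN and DN-SM, and 261 met the rule for agreement, in which the smaller of both changes is at least 50% of the larger. These 261 agreeing genes were 2.58% of the genes tested, 146 higher and 115 lower. Both changes are measured from the same SHAM libraries, so the agreement is a description of the members and not a test. The median change was 0.85 on the log2 scale among the 146 and -0.62 among the 115, where the median of all genes tested was -0.01. A change of at least 2-fold was found in 81, of which 54 were higher and 27 lower. In 253 of the 261 the 6 injured libraries lay all above or all below the 3 SHAM libraries in log2 CPM (counts scaled to the library size), a separation that 834 of all genes tested, or 8.23%, showed.

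**Figure D1:**
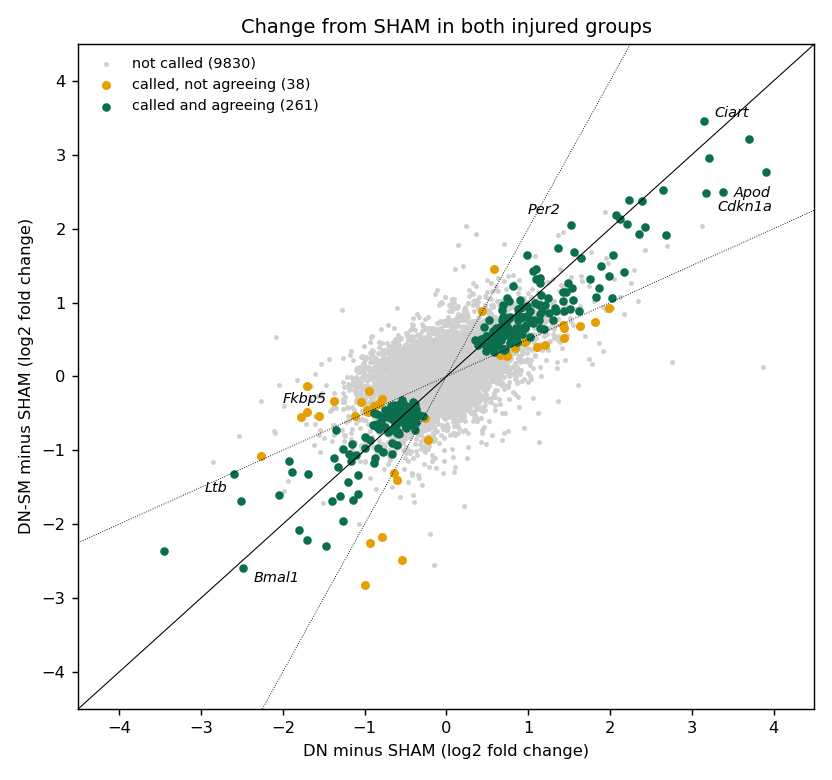
Each point is 1 of the 10129 genes tested, with its log2 fold change from SHAM in DN on the horizontal axis and in DN-SM on the vertical axis; the solid line marks equal change and the dotted lines the limits of the rule for agreement. The 261 agreeing genes lie between the dotted lines, the 38 called genes outside them do not meet the rule for agreement, and both axes share the SHAM libraries.

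Taken alone, DN differed from SHAM in 432 genes (4.26%) and DN-SM from SHAM in 85 (0.839%). Of the 261 agreeing genes, 198 were called in DN, 72 in DN-SM, 61 in both and 52 in neither, so the last were called only in the mean of both groups. Counts over gene lists below are edgeR calls in that mean unless a group is named. The share of all genes tested to set beside them is 2.95% called, with 1.60% higher and 1.35% lower. Another 25 list members were called in 1 group but not in the mean, 24 of them in DN and 1 in DN-SM, and none of these was called between DN-SM and DN. Of the 146 higher genes 104 had the larger change in DN and 42 in DN-SM, and of the 115 lower genes 64 fell further in DN and 51 in DN-SM. The direct comparison of DN-SM with DN called 1 gene of 10129 (0.00987%), Serpina3n, and none of the 261 (edgeR; smallest adjusted p among them 0.144, with 33 at an unadjusted p under 0.05). DESeq2 called 222 genes in that comparison, 2 of them among the 261, and limma-voom 628, with 11 among the 261. The rule for agreement leaves out genes with a large difference between the groups. Few calls among the 261 therefore follow from how they were chosen. Sntb1, a syntrophin of the fibre membrane, stood just inside the rule for agreement, with its smaller change at 50.7% of the larger (-2.60 in DN, -1.32 in DN-SM), and Selenom just outside it at 49.9% (0.97 and 0.48). At the edge of the call, Zfp709 had an adjusted p of 0.050 after rounding and Myh3 one of 0.0516.

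The number of calls moved with single libraries. Without SHAM replicate 3 it rose to 456, and it was 170 without SHAM replicate 2, 133 without DN replicate 3, 180 without DN replicate 2, and 160, 162 and 189 without DN-SM replicates 1, 2 and 3. The agreeing genes that were still called numbered 116 without SHAM replicate 2, 117 without DN replicate 3 and up to 186 without SHAM replicate 3, and 84 (44 higher, 40 lower) were called with each of the 9 libraries left out. Those 84 are called steady below. By another tool, DESeq2, the number called was 523, of which 424 agreed, and by limma-voom it was 189, of which 163 agreed. Called genes were not spread evenly over transcript length: among the shortest 20% of transcripts, up to 1367 bases, 36 were higher and 13 lower, and among the longest 20% 32 were higher and 42 lower. The part of length in these calls was not tested.

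The genes that rose most came from several kinds of biology: a clock repressor, a growth-arrest gene, a lipid carrier and a stretch-responsive sarcomere protein. Under a rule that asks for agreement, separation and a mean of at least 5 FPKM, the 10 largest rises were in Ciart, Apod, Cdkn1a, Tmem158, Ankrd1, Cst7, Dbp, Enho, S100a4 and Mt2A. Separation from SHAM in these genes, and in the largest falls below, was a condition of that rule and not a result. Apod, a secreted lipid-binding protein, stood at 4.87, 3.04 and 4.74 FPKM in SHAM, at 35.0, 63.1 and 40.3 in DN, and at 24.9, 10.5 and 35.0 in DN-SM. DN-SM replicate 2 was the lowest injured library and still above every SHAM library. The rise was 2.94 on the log2 scale (SE 0.417, adjusted p = 0.00894). Tmem158, a membrane protein induced by Ras signalling, was at 1.15, 0.930 and 1.14 FPKM in SHAM, 8.92, 3.14 and 9.52 in DN, with 4.72, 7.41 and 6.26 in DN-SM (log2 fold change 2.58, SE 0.387, adjusted p = 0.00701). Its lowest injured library was DN replicate 2, again above all of SHAM.

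Ankrd1, a partner of the giant sarcomere protein titin that responds to stretch and load, measured 3.24, 4.12 and 7.12 FPKM in SHAM, 23.9, 22.2 and 35.7 in DN, with 14.6, 30.5 and 30.1 in DN-SM. The changes were 2.39 in DN and 2.37 in DN-SM, with a mean of 2.38 (SE 0.343, adjusted p = 0.00933). Among the 18 tested stretch-sensing and Z-disc proteins it was the one that passed, and the list's median was 0.06. Enho, which encodes the secreted peptide adropin, rose by 1.84 (SE 0.299, adjusted p = 0.00858), from 1.48, 0.980 and 2.16 FPKM in SHAM to 5.46 to 8.39 in DN and 3.96 to 6.44 in DN-SM. S100a4, a small calcium-binding protein of motile and mesenchymal cells, was at 9.32, 8.23 and 13.9 FPKM in SHAM, 36.2, 36.2 and 65.8 in DN, with 19.5, 22.7 and 23.2 in DN-SM (1.55, SE 0.238, adjusted p = 0.00701). All DN libraries lay above all DN-SM libraries, but the test of that difference did not pass (log2 -0.97, adjusted p = 0.144).

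Cst7, an inhibitor of cysteine proteases made by leukocytes, rose by 2.23 (SE 0.448, adjusted p = 0.0328), with 2.23, 3.66 and 2.19 FPKM in SHAM and 6.35 to 23.3 over the injured libraries. Mt2A, a metal-binding metallothionein, rose by 1.55 (SE 0.359, adjusted p = 0.0409), from 1.86 to 4.18 FPKM in SHAM to 5.75 to 16.1 over the injured libraries. Both calls were fragile: Cst7 kept its own only without DN replicate 2, DN-SM replicate 2 or DN-SM replicate 3 (highest adjusted p 0.104, without SHAM replicate 1), and Mt2A only without DN replicate 1 or DN-SM replicate 1 (highest 0.0927, without DN replicate 3). Apod and Ankrd1 lost theirs without SHAM replicate 2 alone (adjusted p 0.0639 for both). Tmem158, Enho and S100a4 were steady. Of the 10 largest rises, limma-voom did not call Apod, Cdkn1a, Tmem158, Cst7 or Mt2A.

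**Figure D2:**
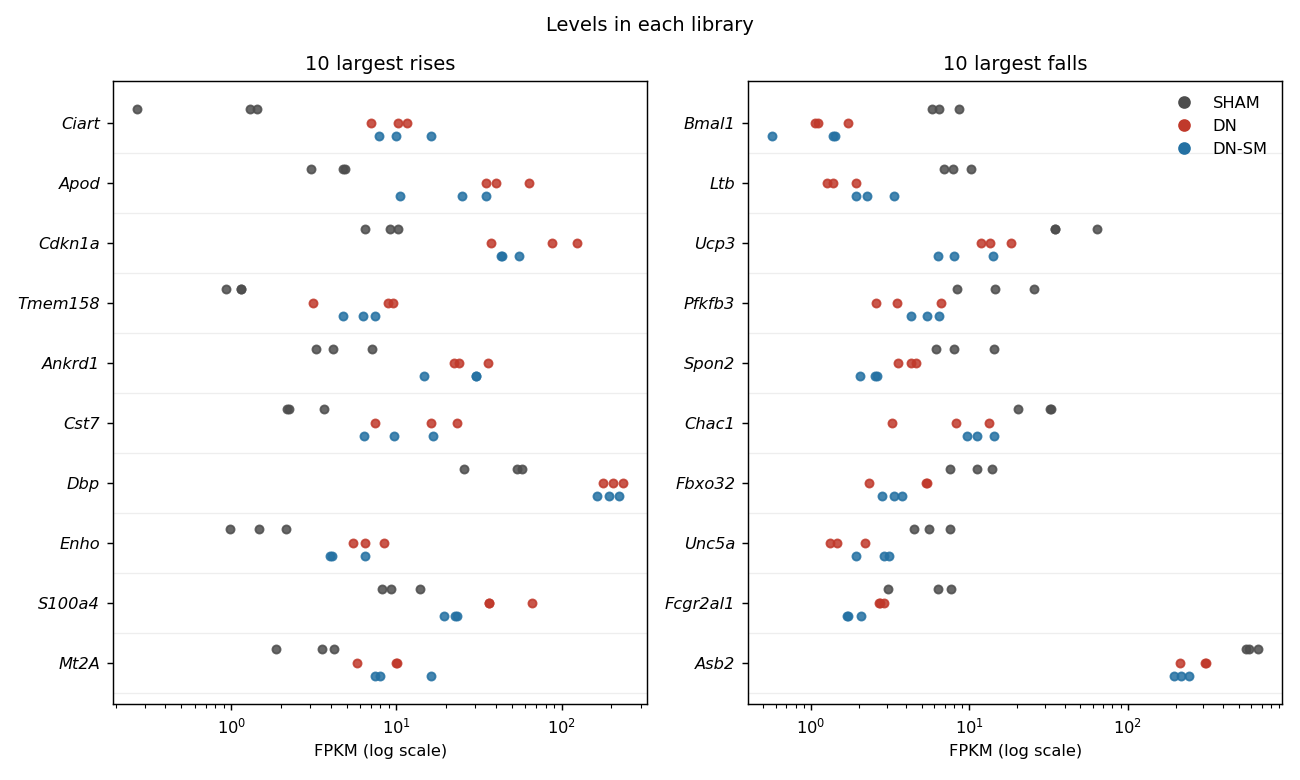
FPKM on a log axis in each of the 9 libraries for the 10 largest rises (left) and the 10 largest falls (right); each dot is 1 library, coloured by group. The naming rule required separation in log2 CPM, so the SHAM dots lie on one side of all 6 injured dots in all 20 genes. The gap is narrowest in Fcgr2al1, where SHAM replicate 2 is at 3.05 and the highest injured library at 2.87 FPKM.

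The largest falls were in Bmal1, Ltb, Ucp3, Pfkfb3, Spon2, Chac1, Fbxo32, Unc5a, Fcgr2al1 and Asb2. They include a clock activator, a lymphoid cytokine, a mitochondrial carrier and a pair of ubiquitin ligase components. Ltb, the membrane-bound cytokine lymphotoxin beta, was at 10.2, 6.87 and 7.87 FPKM in SHAM, 1.27, 1.91 and 1.38 in DN, with 2.25, 3.32 and 1.91 in DN-SM. The log2 fold change was -2.10 (SE 0.210, edgeR adjusted p = 0.000600), and all 6 injured libraries lay under SHAM. Spon2, a secreted matrix protein that marks microbes for phagocytes, was lower in DN-SM (2.55, 2.61 and 2.05 FPKM) and in DN (4.62, 3.55 and 4.29) than in SHAM (8.02, 6.13 and 14.3), with a change of -1.62 (SE 0.244, adjusted p = 0.00701). Unc5a, a receptor for the guidance cue netrin, was at 4.49, 7.59 and 5.57 FPKM in SHAM, 1.32, 2.18 and 1.46 in DN, with 3.12, 1.92 and 2.91 in DN-SM (-1.54, SE 0.238, adjusted p = 0.00711). Its highest injured library, DN-SM replicate 1, stayed below every SHAM library.

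Fcgr2al1, a receptor for antibody Fc regions, had 7.65, 3.05 and 6.35 FPKM in SHAM and 1.69 to 2.87 over the injured libraries (-1.34, SE 0.232, adjusted p = 0.0113). It belongs to a family of near copies, so reads may have been split among them and the value is uncertain. Chac1, an enzyme that degrades glutathione, was at 20.2, 32.6 and 32.2 FPKM in SHAM, 3.24, 13.2 and 8.22 in DN, with 9.63, 11.2 and 14.2 in DN-SM (-1.59, SE 0.348, adjusted p = 0.0489). Its call held only without DN replicate 1, DN replicate 2 or SHAM replicate 1 (highest adjusted p 0.186, without SHAM replicate 2), while Ltb, Spon2, Unc5a and Fcgr2al1 were steady. Of the 10 largest falls, limma-voom did not call Chac1 or Pfkfb3.

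The clearest shared change by p-value lay in the circadian clock. Of 15 clock genes tested, 4 were higher (Per2, Per3, Ciart and Dbp) and 2 lower (Bmal1 and Npas2) in the injured muscle, all 6 with both groups agreeing, and 9 did not pass; the median of the 15 was 0.19. DESeq2 called 7 higher and 4 lower, and limma-voom 5 and 2. By edgeR 2.95% of all genes tested were called. Both that fell are activators of the clock, and the 4 that rose are known targets of those activators. The list's other repressors and output factors did not pass by edgeR. Cry1 was at -0.40, Nr1d1 at -0.35, Bhlhe40 at 0.04 and Nr1d2 at 0.19. Nfil3 stood at -1.08, Cry2 at 0.40, Tef at 0.51 and Per1 at 1.31. The promoters of these 6 clock genes are shown because they were called with both injured groups agreeing. Each runs from 250 bases before to 50 bases after the transcription start. The sequences are given by RefSeq on build GRCr8, which is not the build of the deposited counts. Capitals mark every match, on either strand, of 4 motifs: CACGTG (the E-box bound by clock factors), CAGCTG (the E-box of muscle regulators), TTATGNAA (the D-box, bound by DBP) and TAGGTCA (the core of the element bound by ROR and REV-ERB receptors). No matches overlapped in these promoters. They lie at chr1:176766078-176766377 (Bmal1, plus strand), chr9:48959315-48959614 (Npas2, plus), chr9:99496944-99497243 (Per2, minus), chr5:166777751-166778050 (Per3, minus), chr2:186112197-186112496 (Ciart, minus) and chr1:105312006-105312305 (Dbp, plus).
Bmal1: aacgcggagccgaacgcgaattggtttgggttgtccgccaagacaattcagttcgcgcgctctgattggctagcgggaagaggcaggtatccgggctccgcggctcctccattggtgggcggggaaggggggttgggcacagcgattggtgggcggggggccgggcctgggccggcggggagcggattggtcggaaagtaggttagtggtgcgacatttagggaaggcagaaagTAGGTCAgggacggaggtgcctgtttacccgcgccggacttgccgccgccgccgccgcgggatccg
Npas2: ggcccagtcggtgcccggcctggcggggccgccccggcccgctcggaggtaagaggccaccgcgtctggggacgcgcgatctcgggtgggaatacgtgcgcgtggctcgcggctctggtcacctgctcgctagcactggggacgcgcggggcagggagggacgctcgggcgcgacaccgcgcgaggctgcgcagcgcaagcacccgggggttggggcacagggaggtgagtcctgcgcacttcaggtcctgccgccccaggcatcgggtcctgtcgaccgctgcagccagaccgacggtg
Per2: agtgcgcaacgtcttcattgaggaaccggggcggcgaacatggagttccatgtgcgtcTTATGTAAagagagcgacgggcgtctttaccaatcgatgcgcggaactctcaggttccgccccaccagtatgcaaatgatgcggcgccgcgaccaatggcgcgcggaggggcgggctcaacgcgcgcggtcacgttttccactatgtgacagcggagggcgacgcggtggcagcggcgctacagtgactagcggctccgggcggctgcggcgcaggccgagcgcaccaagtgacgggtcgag
Per3: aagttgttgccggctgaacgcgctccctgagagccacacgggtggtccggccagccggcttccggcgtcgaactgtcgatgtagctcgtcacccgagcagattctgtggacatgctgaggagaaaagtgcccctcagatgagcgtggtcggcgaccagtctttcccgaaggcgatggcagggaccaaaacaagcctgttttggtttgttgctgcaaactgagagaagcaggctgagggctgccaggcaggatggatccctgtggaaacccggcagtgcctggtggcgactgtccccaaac
Ciart: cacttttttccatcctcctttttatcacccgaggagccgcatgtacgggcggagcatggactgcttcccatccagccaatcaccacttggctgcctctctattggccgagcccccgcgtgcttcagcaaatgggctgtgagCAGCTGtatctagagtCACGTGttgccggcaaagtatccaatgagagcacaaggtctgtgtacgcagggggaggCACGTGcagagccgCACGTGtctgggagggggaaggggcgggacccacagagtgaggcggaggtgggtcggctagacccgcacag
Dbp: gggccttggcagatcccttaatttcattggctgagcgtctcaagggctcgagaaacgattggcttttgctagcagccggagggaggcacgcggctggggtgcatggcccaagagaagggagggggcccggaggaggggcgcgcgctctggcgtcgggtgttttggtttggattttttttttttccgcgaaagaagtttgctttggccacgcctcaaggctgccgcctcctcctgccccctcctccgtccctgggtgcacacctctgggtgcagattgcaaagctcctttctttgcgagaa

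Ciart held 3 matches to CACGTG and 1 to CAGCTG, Per2 held 1 D-box and Bmal1 held 1 TAGGTCA. Npas2, Per3 and Dbp held none of these letters in this window. Among 27457 genes in the promoter table CACGTG occurred in 7.08%, CAGCTG in 16.2%, the D-box in 3.86% and TAGGTCA in 2.83%. Among the 8297 of them tested here the shares were 10.1%, 16.7%, 1.65% and 1.81%. Promoters were found for 200 of the 261 agreeing genes (76.6%), which is under the 80% required here for a statement on the whole set, so no share is given for it.

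Bmal1, the clock's main activator (gene ID 29657), was at 8.55, 5.84 and 6.43 FPKM in SHAM, 1.11, 1.06 and 1.71 in DN, with 1.42, 0.570 and 1.37 in DN-SM. Every injured library was under every SHAM library, and both groups fell alike, by -2.49 in DN and -2.59 in DN-SM (mean -2.54, SE 0.220, adjusted p = 0.000251). Npas2, the partner that can take the place of CLOCK, was at 2.33, 0.850 and 1.48 FPKM in SHAM, 0.510, 0.490 and 0.730 in DN, with 0.290, 0.190 and 0.440 in DN-SM (-1.88, SE 0.293, adjusted p = 0.00701). SHAM replicate 2 was close to the highest injured library, DN replicate 3, without overlap. Clock itself stood at a change of -0.72 (adjusted p = 0.0906) and did not pass.

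Per2, a repressor in the clock's core loop, had the smallest p of all genes. Its level was 1.46, 1.31 and 1.09 FPKM in SHAM, 3.53, 4.12 and 3.98 in DN, with 4.64, 5.91 and 5.22 in DN-SM, a rise of 1.78 (SE 0.140, adjusted p = 0.000159). The 3 groups did not overlap, with DN-SM the highest, yet DN-SM against DN did not pass (0.53, adjusted p = 0.144). Per3, its relative, rose by 0.83 (SE 0.189, adjusted p = 0.0395), from 1.99, 2.59 and 2.19 FPKM to 3.97, 4.22 and 3.37 in DN, with 4.23, 5.29 and 3.54 in DN-SM. Ciart, a repressor of the BMAL1 and CLOCK pair, was at 0.270, 1.30 and 1.43 FPKM in SHAM, 10.2, 11.6 and 7.05 in DN, with 7.89, 9.92 and 16.1 in DN-SM (3.30, SE 0.436, adjusted p = 0.00675). Dbp, a clock output factor that binds the D-box, rose from 25.8, 54.0 and 57.5 FPKM to 204, 235 and 179 in DN, with 163, 194 and 221 in DN-SM, by 2.12 and 2.13 (mean 2.13, SE 0.296, adjusted p = 0.00899).

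Among the clock genes that did not pass, Per1 had 4.85 to 9.64 FPKM in SHAM and 10.4 to 30.4 over the injured libraries (1.31, adjusted p = 0.153). Nfil3, a repressor that competes with DBP, had a change of -1.08 (adjusted p = 0.0560), Tef, a relative of DBP, 0.51 (0.0588) and Cry2 0.40 (0.0560). Nr1d1 and Nr1d2, the REV-ERB repressors of Bmal1, were at -0.35 (adjusted p = 0.297) and 0.19 (0.668). Usp2, a deubiquitinase whose transcript is known to follow the clock and which was outside the list, rose by 0.89 (SE 0.110, adjusted p = 0.00295), with 40.1, 35.9 and 32.9 FPKM in SHAM and 56.1 to 73.8 over the injured libraries. Per2, Ciart, Dbp, Usp2, Bmal1 and Npas2 were steady, and Per3 kept its call only without DN-SM replicate 3 or SHAM replicate 2 (highest adjusted p 0.125, without SHAM replicate 1). Since the labels give no time of day, a difference between groups in collection time cannot be told apart from injury.

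**Figure D3:**
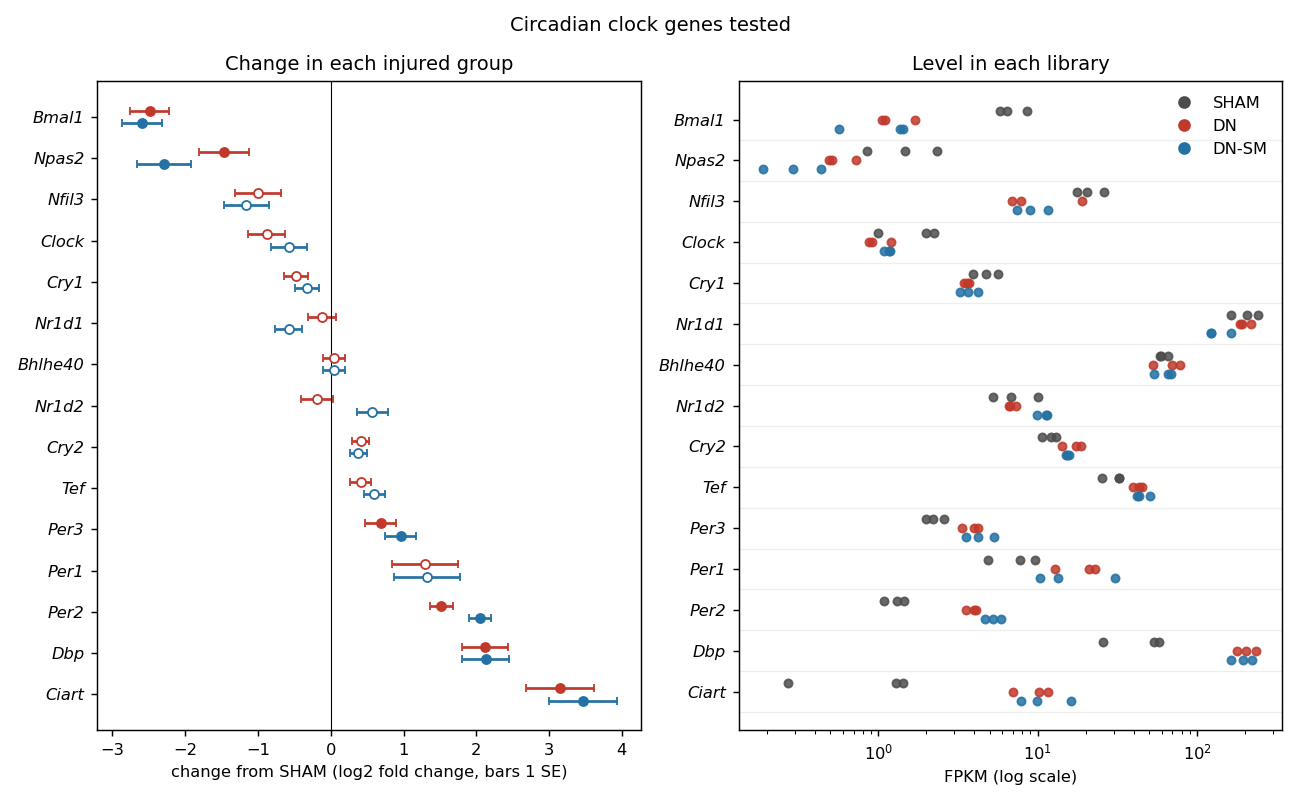
The 15 clock genes tested, ordered by their mean change: the left panel gives the log2 fold change from SHAM in DN and DN-SM with bars of 1 SE, filled where the gene was called with both groups agreeing, and the right panel the FPKM in each library on a log axis. Bmal1 and Npas2 lie at the low end and Per2, Dbp and Ciart at the high end in both groups.

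Several genes of growth arrest rose. Of 20 tested genes of growth arrest and stress response, 4 were higher (Cdkn1a, Cdkn1c, Gadd45a and Phlda3), 1 lower (Sesn1) and 15 did not pass, with a median of 0.24. Over all genes tested 1.60% rose and 1.35% fell. Cdkn1a, the inhibitor p21, was at 9.09, 6.46 and 10.2 FPKM in SHAM, 87.0, 37.2 and 123 in DN, with 43.0, 43.5 and 54.8 in DN-SM. DN varied more among its libraries than DN-SM, and no injured library came near SHAM (2.83, SE 0.367, adjusted p = 0.00858). Cdkn1c, the inhibitor p57, measured 5.55, 4.43 and 6.46 FPKM in SHAM, 12.5, 11.2 and 14.6 in DN, with 14.8, 14.4 and 9.51 in DN-SM (1.20, SE 0.181, adjusted p = 0.00701). Gadd45a, a stress gene induced in denervated muscle, rose by 1.31 (SE 0.248, adjusted p = 0.0170), with 3.59, 4.67 and 3.84 FPKM in SHAM, 5.74, 8.32 and 11.4 in DN, with 8.61, 13.9 and 15.2 in DN-SM.

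Phlda3, an inhibitor of AKT signalling, rose by 0.93 (adjusted p = 0.0369), from 21.4 to 43.7 FPKM in SHAM to 52.0 to 80.8 over the injured libraries. Sesn1, a sestrin that restrains mTORC1, had a log2 fold change of -0.60 (adjusted p = 0.0483), with 18.3 to 18.8 FPKM in SHAM and 9.11 to 17.0 over the injured libraries. Mdm2, a ubiquitin ligase (0.08, adjusted p = 0.798), and Bax, a promoter of cell death (0.16, 0.717), did not pass. Cdkn1b (-0.30, edgeR adjusted p = 0.663) and Gadd45b (-0.63, 0.117) had changes on the lower side and did not pass either. Cdkn1c was steady; Cdkn1a lost its call without SHAM replicate 2 (adjusted p 0.0627) and Gadd45a without SHAM replicate 1 (0.0654). Phlda3 kept its call only without DN-SM replicate 1 or SHAM replicate 3 (highest adjusted p 0.0977, without SHAM replicate 1), and Sesn1 only without DN-SM replicate 3 (highest 0.127, without SHAM replicate 2).

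Several ubiquitin ligases linked to muscle atrophy fell. Of 18 tested, 4 fell in the mean of both groups (Fbxo32, Asb2, Fbxo31 and Ubr2), none rose there by edgeR, DESeq2 or limma-voom, and 14 did not pass, with a median of -0.17. The share that fell among all genes tested was 1.35%. In DN-SM alone 1 member rose, Trim55, the ligase MuRF2, by 0.60 (adjusted p = 0.0495), with 0.11 in DN (0.652) and a mean of 0.36 (0.105). Fbxo32, the muscle ligase component atrogin-1, was at 13.9, 11.1 and 7.56 FPKM in SHAM, 2.33, 5.37 and 5.30 in DN, with 2.79, 3.34 and 3.75 in DN-SM (-1.54, SE 0.238, adjusted p = 0.00701). Asb2, a ligase adaptor that targets filamins and desmin, was among the most abundant of the changed genes, at 579, 555 and 665 FPKM in SHAM, 215, 313 and 305 in DN, with 244, 217 and 197 in DN-SM. The highest injured library, DN replicate 2, was far under the lowest SHAM library (-1.32, SE 0.129, adjusted p = 0.000600). Trim63, the ligase MuRF1, had 94.0, 111 and 98.7 FPKM in SHAM, 88.1, 72.3 and 89.8 in DN, with 70.0, 71.9 and 91.5 in DN-SM, and its change of -0.37 did not pass (adjusted p = 0.150).

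Fbxo31, a cell-cycle ligase component, had a log2 fold change of -0.43 (adjusted p = 0.0445), and Ubr2, a ligase of the N-degron pathway, one of -0.44 (0.0307). Of 22 autophagy and lysosomal genes, Cst7 was higher and Ulk1, the kinase that starts autophagy, lower, and 20 did not pass (median 0.01). Ulk1 was at 18.6, 15.2 and 17.4 FPKM in SHAM, 12.4, 14 and 15.2 in DN, with 10.1, 11.6 and 10.8 in DN-SM (-0.50, SE 0.0877, adjusted p = 0.0117). Foxo4, a transcription factor of the atrophy programme, had a log2 fold change of -0.66 (adjusted p = 0.0206), at 58.2 to 70.7 FPKM in SHAM and 35.2 to 52.1 over the injured libraries, and Igf2, an insulin-like growth factor, rose by 0.90 (0.0162), from 15.1 to 17.5 FPKM to 22.1 to 40.0. Those were the 2 calls in the mean among 22 genes of insulin-like growth factor, myostatin and FoxO signalling. Fbxo32, Asb2 and Ulk1 were steady. Foxo4 lost its call without SHAM replicate 2 (adjusted p 0.0628) and Igf2 without SHAM replicate 1 (0.0591); Fbxo31 kept its own only without SHAM replicate 2 (highest 0.133, without SHAM replicate 1), and Ubr2 only without DN replicate 1, SHAM replicate 2 or SHAM replicate 3 (highest 0.0783, without DN-SM replicate 1).

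The lists of denervation regulators, junction genes and embryonic sarcomere genes gave 1 edgeR call in the mean of both groups. Of 17 myogenic and denervation regulators tested, Myog rose and 16 did not pass (median -0.01, with 5 at an unadjusted p under 0.05). DESeq2 called 2, Myog and Runx1, both higher, and limma-voom called none. Runx1 changed by 1.29 in DN and 0.99 in DN-SM (mean 1.14, edgeR adjusted p = 0.0646). Myog, the transcription factor myogenin, was at 22.6, 13.6 and 19.2 FPKM in SHAM, 33.7, 31.4 and 40.0 in DN, with 20.5, 24.4 and 29.3 in DN-SM. In FPKM, SHAM replicate 1 exceeded DN-SM replicate 1, although all 6 injured libraries lay above SHAM in log2 CPM (0.66, SE 0.145, adjusted p = 0.0333). None of the 16 neuromuscular junction genes and none of the 5 embryonic and neonatal sarcomere genes passed by edgeR, with medians of 0.25 and 0.97. At an unadjusted p under 0.05 there were 5 and 4, DESeq2 called 1 (Ncam1) and 3 (Myh3, Actc1 and Tnnt2), all higher, and limma-voom none. In DN alone 1 of the 16 and 3 of the 5 rose, and in DN-SM alone none of either by edgeR. Myh3, the embryonic myosin, had a change of 2.07 (adjusted p = 0.0516), the largest of the 5, and Ncam1, an adhesion molecule that denervated fibres display, one of 0.83 (0.0516).

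Chrna1, the alpha subunit of the acetylcholine receptor, was at 15.5, 8.09 and 7.86 FPKM in SHAM, 16.8, 13.8 and 20.1 in DN, with 11, 8.00 and 14.8 in DN-SM (0.40, adjusted p = 0.388). Chrng, the fetal gamma subunit, was low throughout, at 0.0600 to 0.620 FPKM in SHAM, 0.710 to 1.72 in DN and 0.130 to 1.03 in DN-SM (1.11, adjusted p = 0.427). Hdac4, a repressor that links denervation to myogenin, was at 1.02 to 1.58 FPKM in SHAM and 0.700 to 1.31 over the injured libraries (-0.34, adjusted p = 0.483). In each of these 3 genes the injured libraries, taken as 1 set, overlapped SHAM. For Chrng the overlap lay in DN-SM, and all DN libraries were above SHAM. Its change was 1.69 in DN (edgeR adjusted p = 0.180) and 0.54 in DN-SM (0.827). Myog kept its call only without DN-SM replicate 1, SHAM replicate 1 or SHAM replicate 3 (highest adjusted p 0.102, without SHAM replicate 2).

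Some of the channels that carry the muscle's electrical signal fell. Of 18 genes of excitation-contraction coupling tested, 3 fell (Scn4a, Kcnj11 and Cacna1s), none rose by edgeR, DESeq2 or limma-voom, and 15 did not pass, with a median of -0.19. Over all genes tested 1.35% fell. Scn4a, the sodium channel of the muscle action potential, was at 42.0, 37.2 and 36.0 FPKM in SHAM, 26.7, 25.4 and 25.4 in DN, with 25.5, 26.9 and 24.1 in DN-SM. The injured libraries spanned 24.1 to 26.9, a narrow band well under SHAM (-0.60, SE 0.0850, adjusted p = 0.00675). Kcnj11, the pore of the ATP-sensitive potassium channel, was at 98.1, 104 and 104 FPKM in SHAM, 68.4, 58.7 and 52.2 in DN, with 74.3, 70.9 and 67.0 in DN-SM (-0.68, SE 0.119, adjusted p = 0.0117). Cacna1s, the voltage sensor of the T-tubule, was at 314 to 323 FPKM in SHAM and 189 to 256 over the injured libraries (-0.57, SE 0.123, adjusted p = 0.0297).

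Most fibre type genes did not pass. None of 13 slow fibre genes passed by edgeR, DESeq2 or limma-voom (median 0.45, with 1 at an unadjusted p under 0.05). Of 17 fast fibre genes Mylk2 and Aqp4 fell (median -0.09, with -0.39 in DN and 0.11 in DN-SM). DESeq2 and limma-voom also called Myl11, a myosin light chain, higher, where edgeR gave 0.49 (adjusted p = 0.146). Mylk2, the kinase that phosphorylates myosin light chain in skeletal muscle, was at 393, 438 and 479 FPKM in SHAM, 206, 254 and 159 in DN, with 220, 235 and 231 in DN-SM (-1.04, SE 0.153, adjusted p = 0.00675). Myh4, the myosin of the fastest fibres, was at 1752, 6969 and 2331 FPKM in SHAM, 1009, 942 and 827 in DN, with 2732, 2401 and 1626 in DN-SM (-1.42, adjusted p = 0.126). Myh7, the slow myosin, was at 1477, 416 and 1059 FPKM in SHAM, 1360, 1378 and 1949 in DN, with 805, 940 and 1682 in DN-SM (0.45, adjusted p = 0.548). SHAM replicate 2 was the extreme library for both myosins, with the highest Myh4 and the lowest Myh7 level. Scn4a, Kcnj11 and Mylk2 were steady; Cacna1s kept its call only without DN replicate 1, DN-SM replicate 2, SHAM replicate 1 or SHAM replicate 3 (highest adjusted p 0.0757, without DN-SM replicate 1).

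Some regulators of fuel choice fell, while most enzymes of fuel use did not pass. Ucp3, a mitochondrial inner membrane carrier linked to fatty acid use, was at 34.5, 34.9 and 63.8 FPKM in SHAM, 11.9, 18.4 and 13.4 in DN, with 7.99, 14.1 and 6.36 in DN-SM (-1.96, SE 0.293, adjusted p = 0.0127). Pdk4, a kinase that shuts off pyruvate dehydrogenase, was at 71.0, 61.8 and 80.2 FPKM in SHAM, 29.1, 26.3 and 31.0 in DN, with 20.6, 42.7 and 34.1 in DN-SM (-1.24, SE 0.176, adjusted p = 0.00675). Its relative Pdk2 was at 370 to 422 FPKM in SHAM and 269 to 324 over the injured libraries (-0.43, SE 0.0898, adjusted p = 0.0257). These were 2 of the 20 genes of pyruvate oxidation and the tricarboxylic acid cycle, and the other 18 did not pass (median 0.05).

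Of 15 glycolysis genes, Hk2 and Pfkfb3 fell and 13 did not pass (median -0.25). Hk2, the hexokinase that traps glucose in muscle, was at 15.9, 11.7 and 15.6 FPKM in SHAM and 8.56 to 11.4 over the injured libraries (-0.62, SE 0.116, adjusted p = 0.0166). Pfkfb3, which makes the activator of phosphofructokinase, was at 8.35, 25.5 and 14.6 FPKM in SHAM and 2.57 to 6.60 over the injured libraries (-1.83, SE 0.396, adjusted p = 0.0489). Acaa2, the last enzyme of mitochondrial fatty acid oxidation, was on the higher side, at 108 to 166 FPKM in SHAM and 186 to 238 over the injured libraries (0.50, SE 0.116, adjusted p = 0.0402). Among 21 genes of fatty acid uptake and oxidation it was the 1 that rose and Ucp3 the 1 that fell (median 0.10), and none of 22 respiratory chain subunits passed by edgeR, DESeq2 or limma-voom (median 0.13, with 2 at an unadjusted p under 0.05).

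Ucp3, Pdk4 and Hk2 were steady. The call of Pfkfb3 held only without DN replicate 2 or SHAM replicate 1 (highest adjusted p 0.134, without SHAM replicate 2), that of Pdk2 only without DN replicate 1, DN-SM replicate 3 or SHAM replicate 1 (highest 0.0710, without DN replicate 3) and that of Acaa2 only without SHAM replicate 3 (highest 0.112, without SHAM replicate 2).

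Of 18 glucocorticoid-responsive genes, Mt1, Mt2A and Hsd11b1 rose, Fkbp5 fell and 14 did not pass (median 0.04). Mt1, the second metallothionein, was at 3.85, 4.45 and 5.61 FPKM in SHAM, 14.1, 19.8 and 20.5 in DN, with 8.38, 8.03 and 15.3 in DN-SM (1.53, SE 0.292, adjusted p = 0.0181). It is close in sequence to Mt2A, so reads of both may have been shared. Hsd11b1, which makes active glucocorticoid from its inert form, was at 6.29, 3.11 and 3.62 FPKM in SHAM, 12.0, 14.6 and 11.8 in DN, with 5.43, 6.29 and 12.1 in DN-SM (1.21, SE 0.271, adjusted p = 0.0392). DN-SM overlapped SHAM there, through SHAM replicate 1. Mt1 lost its call without SHAM replicate 1 (adjusted p 0.0658), and Hsd11b1 kept its own only without DN-SM replicate 1, DN-SM replicate 3 or SHAM replicate 1 (highest 0.140, without SHAM replicate 2). Of 15 genes of the integrated stress response, Chac1 and Slc3a2, the heavy chain of amino acid transporters, fell and 13 did not pass (median 0.02). Slc3a2 had a log2 fold change of -0.43 (adjusted p = 0.0436), a call that held only without DN replicate 1 or SHAM replicate 1 (highest adjusted p 0.129, without SHAM replicate 2).

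Some endothelial markers rose in injured muscle, while none of 10 pericyte and smooth muscle markers passed by edgeR, DESeq2 or limma-voom (median 0.03). Of 15 endothelial markers tested, Pecam1, Cdh5 and Tie1 rose, none fell and 12 did not pass (median 0.43); DESeq2 called 5 of them and limma-voom 2, all higher. In DN alone 6 rose and in DN-SM alone 1. Among all genes tested 1.60% rose in the mean of both groups. Their summed level was 360 to 472 FPKM in SHAM, 522 to 622 in DN and at least 461 in DN-SM, so DN-SM reached into the range of SHAM. In bulk muscle, more endothelial cells and more of these transcripts per cell cannot be told apart. Cdh5, the cadherin of endothelial junctions, was at 32.8, 30.0 and 28.2 FPKM in SHAM, 41.7, 49.4 and 60.3 in DN, with 48.2, 44.6 and 41.8 in DN-SM (0.62, SE 0.105, adjusted p = 0.00965). Pecam1, an adhesion molecule of the same junctions, was at 33.5, 28.5 and 30.2 FPKM in SHAM and 37.1 to 56.3 over the injured libraries (0.53, SE 0.0949, adjusted p = 0.0132). Kdr and Flt1, the receptors for vascular endothelial growth factor, did not share that direction, at -0.30 (adjusted p = 0.245) and -0.24 (0.559).

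Gpihbp1, which holds lipoprotein lipase on the capillary wall, had one of the 6 smallest p-values under the naming rule. It was at 6.45, 6.75 and 7.52 FPKM in SHAM, 19.8, 18.1 and 22.5 in DN, with 17.4, 12.4 and 15.4 in DN-SM (1.30, SE 0.148, adjusted p = 0.00158). Sh2d3c, an adaptor of integrin and receptor signalling, rose by 0.85 (SE 0.108, adjusted p = 0.00336), from 6.43 to 7.78 FPKM in SHAM to 11.2 to 14.2. Col4a1, a collagen of basement membranes, was at 54.8, 34.3 and 55.7 FPKM in SHAM, 86.3, 104 and 128 in DN, with 88, 75.2 and 76.5 in DN-SM (0.91, SE 0.148, adjusted p = 0.00861). With Lama5, a laminin chain (0.57, adjusted p = 0.0253), it made 2 rises among 8 basement membrane genes tested, of which 6 did not pass (median 0.32). Cdh5, Pecam1, Gpihbp1, Sh2d3c and Col4a1 were steady. Tie1, an endothelial receptor (0.77, adjusted p = 0.0224), lost its call without DN replicate 3, SHAM replicate 2 or SHAM replicate 3 (highest adjusted p 0.0829, without SHAM replicate 2), and Lama5 kept its own only without DN replicate 1, DN replicate 2, DN-SM replicate 3 or SHAM replicate 3 (highest 0.0758, without SHAM replicate 1).

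**Figure D4:**
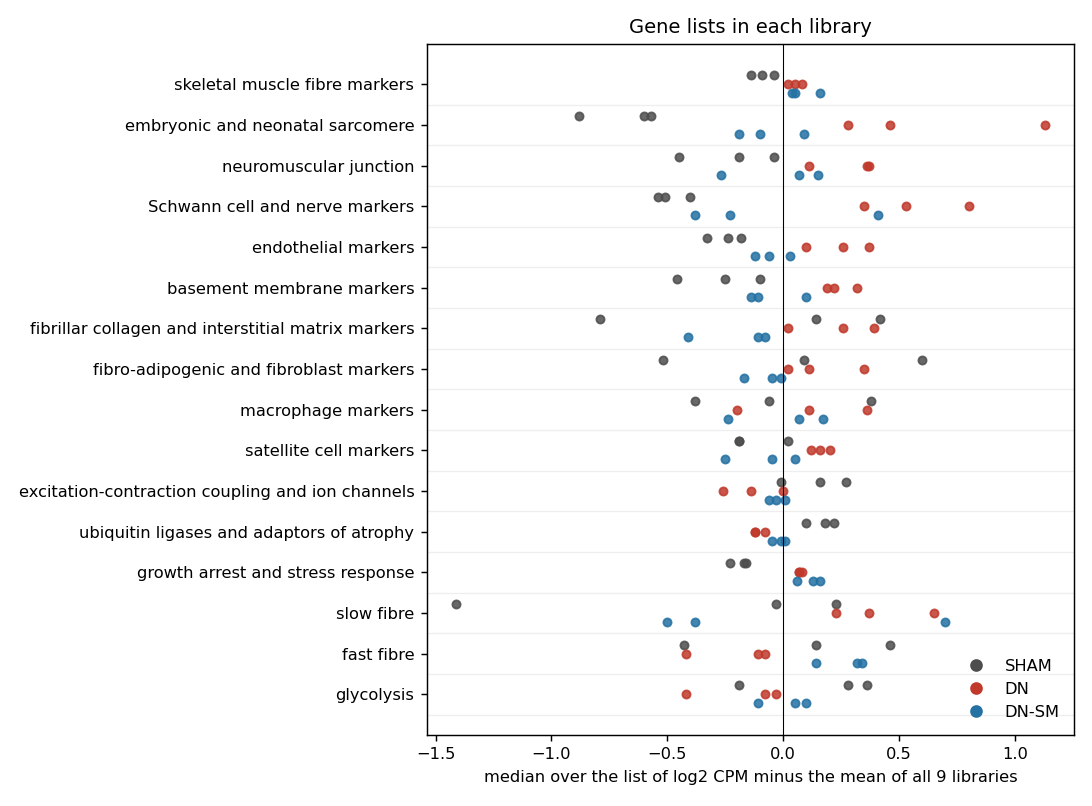
For 16 gene lists (rows), each dot is the median over the list's tested members, in 1 library, of log2 CPM minus that gene's mean over all 9 libraries. SHAM lies to the left of all 6 injured libraries for the muscle fibre, embryonic sarcomere, Schwann cell, endothelial and growth arrest lists and to the right for the ubiquitin ligases, while collagen, macrophage, slow fibre and fast fibre lists overlap.

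Schwann cell and nerve markers gave 1 call of 14 tested, a rise; DESeq2 called 7, all higher, and limma-voom none (9 had an unadjusted p under 0.05). In DN alone edgeR called 5 higher (Ngfr, Mbp, Cnp, Ncam1 and Cadm4; DESeq2 8, limma-voom 2), and in DN-SM alone none by any of these tools (3 at an unadjusted p under 0.05), with medians of 1.03 and 0.57. The difference between the groups was not called for any of the 14. Ngfr, the neurotrophin receptor of Schwann cells that have lost their axons, was at 0.50, 0.550 and 0.790 FPKM in SHAM, 3.03, 1.59 and 2.30 in DN, with 1.25, 1.00 and 1.60 in DN-SM (1.45, SE 0.300, adjusted p = 0.0254). The list's median was 0.81, against -0.01 for all genes. Without Cryab, which muscle itself makes in quantity, the markers summed to 78.3 to 85.9 FPKM in SHAM, 167 to 350 in DN and 95.0 to 203 in DN-SM. Mbp, a protein of myelin, had a change of 1.42 (adjusted p = 0.10), with 1.95 in DN (0.0455) and 0.90 in DN-SM (0.444). Ngfr kept its call only without DN replicate 1, DN replicate 2, DN-SM replicate 2 or SHAM replicate 3 (highest adjusted p 0.0866, without SHAM replicate 1).

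Most fibroblast, collagen and immune cell markers did not pass. Vim, the intermediate filament of mesenchymal cells, was the 1 of 11 fibro-adipogenic and fibroblast markers that rose, from 102, 66.2 and 85.8 FPKM to 141, 147 and 170 in DN, with 105, 107 and 127 in DN-SM (0.62, SE 0.109, adjusted p = 0.0119, steady). None of 15 fibrillar collagen and matrix genes passed by edgeR, DESeq2 or limma-voom (median -0.07, with 2 at an unadjusted p under 0.05), and Col1a1 was at 326, 132 and 411 FPKM in SHAM, 218, 311 and 253 in DN, with 131, 189 and 124 in DN-SM (-0.57, adjusted p = 0.365). None of 17 macrophage markers passed in the mean by edgeR or limma-voom (median 0.02, with 1 at an unadjusted p under 0.05), and DESeq2 called 1, Gpnmb, higher. In DN alone edgeR called Gpnmb too (1.87, adjusted p = 0.0401, against 0.45 and 0.722 in DN-SM). Ltb was the 1 called among 4 lymphocyte markers tested, and the other 3, Cd4 (-0.42), Cd5 (-0.62) and Ptprc (-0.11), did not pass, while Cd3d, Cd3e, Cd3g, Cd8a, Cd8b, Cd79a, Cd79b, Ms4a1 and Cd2 were among those with too few counts to test. The part of lymphocyte number in the fall of Ltb was not tested. Fabp4, a fatty acid carrier of fat and capillary cells, rose by 0.51 (adjusted p = 0.0395) as the 1 edgeR call in the mean among 12 adipocyte markers (median 0.24). DESeq2 called 3, Cidea, Fabp4 and Thrsp, all higher. In DN alone edgeR called Cidea (2.05, adjusted p = 0.0361) and Thrsp (2.34, 0.0206). B2m, the light chain of class I molecules, rose by 0.70 (0.0251) as the 1 edgeR call in the mean among 20 interferon response genes (median 0.39). DESeq2 called Bst2 too, as did edgeR in DN alone (0.78, adjusted p = 0.0227), both higher. In DN-SM alone edgeR called none of either list. Fabp4 kept its call only without DN replicate 1, DN-SM replicate 1 or SHAM replicate 3 (highest adjusted p 0.117, without SHAM replicate 1), and B2m only without DN replicate 1, DN-SM replicate 2, DN-SM replicate 3 or SHAM replicate 1 (highest 0.0864, without SHAM replicate 2). Tpx2, a spindle protein, had a log2 fold change of -1.94 (adjusted p = 0.0107, steady), at 2.71 to 4.83 FPKM in SHAM and 0.610 to 1.65 over the injured libraries, the 1 call among 10 proliferation genes, whose median was 0.42.

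For 38 of the 299 called genes the groups shared a direction but not a size. The change was the larger in DN in 28 of them and in DN-SM in 10, and 18 were separated from SHAM. Fkbp5, a co-chaperone that restrains the glucocorticoid receptor, was at 5.54, 5.91 and 4.49 FPKM in SHAM, 1.24, 1.84 and 1.82 in DN, with 2.72, 4.24 and 3.79 in DN-SM. DN-SM lay between the other groups, with changes of -1.78 in DN and -0.55 in DN-SM (mean -1.17, adjusted p = 0.00675). Ppp1r27, an inhibitor of protein phosphatase, had its larger change in DN-SM, at 414, 294 and 359 FPKM in SHAM, 176, 227 and 321 in DN, with 142, 138 and 141 in DN-SM (-0.64 in DN, -1.31 in DN-SM, adjusted p of the mean 0.00475). For both, DN-SM against DN did not pass over all genes (adjusted p = 0.144 for each), so a difference in size between the groups is a description of these libraries.

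Tmem9, a lysosomal membrane protein, was 1.63 higher in DN and 0.68 in DN-SM (mean 1.15, adjusted p = 0.0107), and Tsc22d4, a transcription regulator, 0.95 and 0.46 (0.0132), all on the log2 scale. Aqp4, the water channel of fast fibres, was at 9.81, 7.39 and 4.28 FPKM in SHAM, 2.62, 2.11 and 1.99 in DN, with 5.12, 6.67 and 7.35 in DN-SM, so DN alone stood apart from SHAM (-1.71 and -0.13, adjusted p of the mean 0.0395). Phkb, a subunit of the kinase that starts glycogen breakdown, changed by -1.56 in DN and -0.53 in DN-SM (0.0282), the 1 call among 16 glycogen genes. Fos and Fosb, immediate early transcription factors, had the larger change in DN-SM: Fosb changed by -0.93 in DN and -2.25 in DN-SM (0.00675) and Fos by -0.79 and -2.17 (0.0437), the 2 calls in the mean among 17 immediate early genes. Neither passed in DN alone, where 2 other members rose: Junb by 0.86 (adjusted p = 0.0360; -0.09 and 0.891 in DN-SM) and Ier5 by 0.65 (0.0439; 0.26 and 0.550). Comp, a cartilage and tendon matrix protein, changed by -0.54 in DN and -2.49 in DN-SM (0.0483), and with Ankrd1 gave the 2 calls among 9 tendon and myotendinous junction genes (median -0.76). Fkbp5, Ppp1r27, Tmem9, Tsc22d4 and Fosb kept their calls with each library left out; Aqp4 kept its own only without DN replicate 1 or SHAM replicate 3 (highest adjusted p 0.133, without SHAM replicate 1), Phkb only without DN replicate 1, DN-SM replicate 1, SHAM replicate 1 or SHAM replicate 3 (highest 0.0619, without SHAM replicate 2), Fos only without DN-SM replicate 3 or SHAM replicate 3 (highest 0.145, without SHAM replicate 2) and Comp only without SHAM replicate 2 (highest 0.135, without SHAM replicate 3).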

How the data were processed

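Messenger RNA was measured in 9 libraries, 3 each of SHAM, DN and DN-SM. The deposited files give, per library and gene, an expected count and an FPKM; per the file headers the expected count is RSEM's estimate with no normalization by the authors, and the FPKM was scaled by the authors to transcript length and library fragments. The tools named per the submitters' processing notes are RSEM, HISAT2 and GATK, on build rn6; versions and settings are not given in the sources used here, nor is the use of strand. Files were joined on gene ID; genes not listed in a file were set to 0 (13752 IDs, 11151 in all files; 13649 named by ID and 7 by transcript from a RefSeq table).

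Expected counts, rounded to whole numbers, went into the quasi-likelihood F test of edgeR 4.0.16 (two-sided, robust, R 4.3.3), with TMM factors and filterByExpr (minimum count 10, minimum total 15), in 1 fit of 9 libraries with group as its only term. The contrast was the mean of DN and DN-SM minus SHAM, with Benjamini-Hochberg adjustment over 10129 genes and a threshold of 0.05; the groups' own contrasts come from the same fit. Log2 fold changes come from this fit and levels are FPKM. The test gives no SE of its own. Each SE printed is the size of the log2 fold change divided by the square root of its F statistic. Libraries differed by more than counting noise (chi-square per degree of freedom at least 7.73 in every pair of a group), so none was treated as a repeat deposit of another; this does not show that they came from separate animals.

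Genes were named by a rule: among called, agreeing and separated genes with a symbol and a mean of at least 5 FPKM in SHAM or the injured libraries, the 10 largest rises, the 10 largest falls and the 6 smallest p; the 4 smallest p among called genes that did not agree; up to 3 passing members of each of 39 gene lists; and always Chrna1, Chrng, Myog, Hdac4, Fbxo32, Trim63, Myh4, Myh7 and Col1a1. Npas2, Per3, Phlda3, Sesn1 and Fbxo31 were named after their values were seen, to complete short counts. The lists held 546 different tested genes, some of which are not reported here. The members, lists and tests were chosen with earlier results of these data known. Alternatives were other scalings (RLE, upper quartile, without the 20 most abundant genes), filters, DESeq2 1.42.0, limma 3.58.1 on log2 FPKM or as voom with sample weights, a replicate block, the 6 injured libraries as one group, stricter or looser agreement, and leaving out each library.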

Additional observations from a re-analysis of the deposited data

Results flagged for a closer look

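S100a4 was at 65.8 FPKM in DN replicate 3, set apart from the other 5 injured libraries, which lay between 19.5 and 36.2. Such a gap arises in about 1 of 20 sets of 6 values from a single normal group. The 6 values here pool DN with DN-SM, and all DN libraries lay above all DN-SM libraries. That rate therefore does not apply, and the gap is a description. Its call against SHAM held with each library left out.

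Serpina3n, a secreted serine protease inhibitor, was the 1 gene whose level differed between DN-SM and DN over all genes, with a log2 fold change of -3.73 (SE 0.453, edgeR adjusted p = 0.0220). It was at 0.300, 0.110 and 0.490 FPKM in SHAM, 3.79, 4.93 and 5.55 in DN, with 0.0600, 0.390 and 0.550 in DN-SM, so the rise was in DN, and the mean of both injured groups did not pass (2.00, adjusted p = 0.0516). No gene was called between DN-SM and DN by edgeR without DN replicate 1, 2 or 3, DN-SM replicate 2 or 3, or SHAM replicate 1.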

How the results depend on the processing

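Against 299 called genes (261 agreeing), the number was 523 (424) by DESeq2, 189 (163) by limma-voom, 195 (164) by limma on FPKM in log2 after adding 1, 183 (159) after adding 0.1, 105 (89) after adding 1 with no filter, and 173 with the 6 injured libraries as one group; 159 agreed when the smaller change had to reach 75% of the larger. In DN against SHAM, 432 became 770 by DESeq2 and 278, 250 and 131 by those limma fits, and in DN-SM against SHAM 85 became 266, 47, 43 and 25. In DN-SM against DN, 1 became 222 by DESeq2, 628 by limma-voom and 0 by limma after adding 0.1. With 1 library left out the ranges were 133 to 456 called, 126 to 299 agreeing, 58 to 1183 in DN, 15 to 137 in DN-SM and 0 to 416 between DN-SM and DN. The cause of these moves was not tested. RLE, upper-quartile and trimmed library sizes and the count filters kept every number within 1.5 times. Replicate numbers did not pair libraries (correlations of same-numbered deviations -0.048 to 0.109); with the number as a block 235 were called, 204 agreeing, 317 in DN, 39 in DN-SM and 1 between them. No alternative reversed the mean change of the 66 named called genes; DESeq2 still called 66, upper-quartile factors 63, the block 54, limma-voom 48, the single injured group 44 and the unfiltered limma fit 37. Among group changes near 0, limma-voom reversed DN-SM against SHAM for Chrna1 (-0.11), Chrng (-0.29), Myh7 (-0.00) and Serpina3n (-0.32). Leaving out libraries gave DN-SM changes of -0.38 to 0.07 for Aqp4, -0.09 to 0.44 for Chrna1, -0.71 to 1.22 for Chrng, -1.11 to 0.19 for Myh4, -0.12 to 0.59 for Myh7 and -0.40 to 0.71 for Serpina3n, and DN changes of -0.55 to 0.18 for Col1a1. Totals of 7926445 to 8893843 counts limit what genes with few counts can show.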

Other observations

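Further agreeing genes outside the lists are given here as values, chosen after these were seen; none of those named changed sign under the other scalings, filters or tools. Abcc8, the regulatory subunit that pairs with the pore encoded by Kcnj11, was at 3.53, 3.83 and 3.66 FPKM in SHAM and 1.90 to 2.83 over the injured libraries (log2 fold change -0.59, edgeR adjusted p = 0.0425, called with 1 of the 9 libraries left out). Scn3b, a beta subunit of sodium channels at a low level, was higher, at 0.540 to 0.880 FPKM in SHAM and 1.19 to 1.88 over the injured libraries (1.03, adjusted p = 0.0195, lost without SHAM replicate 2). Asb11, a relative of Asb2, was at 31.4 to 43.5 FPKM in SHAM and 19.1 to 30.8 over the injured libraries (-0.70, adjusted p = 0.0162, lost without SHAM replicate 2). Rxra, a partner of many nuclear receptors, was at 65.3 to 74.9 FPKM in SHAM and 32.4 to 50.7 over the injured libraries (-0.69, adjusted p = 0.0151), and Lpin1, an enzyme of lipid synthesis and a nuclear coactivator, at 19.6 to 23.3 and 7.96 to 15.1 (-0.90, adjusted p = 0.00701); both were called with each library left out.

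On the higher side, Ramp2, a co-receptor for adrenomedullin, was at 27.5 to 37.7 FPKM in SHAM and 55.0 to 80.7 over the injured libraries (0.90, adjusted p = 0.00509). Cntfr, the receptor for ciliary neurotrophic factor, was at 23.9 to 26.6 FPKM in SHAM and 33.7 to 49.7 (0.75, adjusted p = 0.00894), Smpx, a small protein of the muscle costamere, at 95.7 to 138 and 141 to 222 (0.71, adjusted p = 0.0132), and Erbb2, a co-receptor for the nerve factor neuregulin, at 0.840 to 1.24 and 1.45 to 2.52 (1.03, adjusted p = 0.0111). These 4 were called with each library left out. Under 5 FPKM there were larger changes than those named above: P2rx7, a channel opened by extracellular ATP, was at 0.0300 to 0.0400 FPKM in SHAM and 0.190 to 0.730 over the injured libraries (3.34, adjusted p = 0.00701), and Ubxn10 at 1.47 to 3.48 and 0.0700 to 0.760 (-2.90, adjusted p = 0.0113).

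By edgeR no member passed in the mean of DN and DN-SM among 19 heat shock genes (median 0.01; 3 at an unadjusted p under 0.05; 1 by DESeq2), 12 polyamine genes (median -0.02; 3 and 0), 8 class II genes (median -0.10; 1 and 0), 10 pericyte and smooth muscle markers (median 0.03; 0 and 0), 6 granulocyte and mast cell markers (median -0.30; 0 and 0), 8 erythrocyte markers (median -0.54; 0 and 0) and 9 satellite cell markers (median 0.30; 3 and 0). Limma-voom called none of these. In DN alone edgeR called 1 heat shock gene, Hspb6 (1.05, adjusted p = 0.0452), and 1 satellite cell marker, Sdc3 (0.55, 0.0329), both higher.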
